A study of Mus musculus with 13 samples.

Results

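The lysosome gene set described here held 40 genes that encode lysosomal hydrolases, their activators, lysosomal membrane proteins and the transcription factors Tfeb and Tfe3. The genes were chosen by symbol, with earlier results of these data known, and all 40 were found among the 39171 genes of the FPKM table (fragments per kilobase of transcript, scaled to sequencing depth). They comprised 12 proteases, 11 enzymes that cut sugar chains or remove their sulfate, 8 genes of lipid hydrolysis, activation and transport, 7 membrane proteins and 2 transcription factors. Their levels were followed in 13 libraries of cells sorted from the spinal cord of C57BL/6 mice. Microglia were sorted by the surface protein CD11b, which border macrophages, monocytes and neutrophils also carry. Astrocytes were sorted by a green fluorescent protein driven by the astrocyte gene Aldh1l1. The groups were 3 libraries of Il33 knockout (KO) microglia at postnatal day 12, 3 of wild-type (WT) littermate microglia at day 12, 4 of KO astrocytes (3 at day 12 and 1 at day 9) and 3 of WT astrocytes (2 at day 12 and 1 at day 9). Il33 encodes the cytokine interleukin-33, which astrocytes release and microglia can sense. No other allele or treatment is given in the labels apart from the Aldh1l1 reporter, and the sex of the mice and any pooling of animals are not stated.

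Lysosomes are acidic organelles that degrade proteins, glycans, lipids and nucleic acids delivered by phagocytosis, endocytosis and autophagy. Soluble hydrolases reach them by the mannose 6-phosphate route, a proton pump keeps the lumen acidic, and heavily glycosylated proteins such as LAMP1 and LAMP2 line the membrane. Microglia use this system to digest engulfed debris and synaptic material, and loss of single members causes lysosomal storage disease, often with damage to the nervous system. TFEB and TFE3 bind a palindromic E-box element in the promoters of many lysosomal genes and raise their transcription.

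The labels were checked first. Il33 held 2.28, 2.05, 0.424 and 0.733 FPKM in KO astrocytes, against 96.3, 113 and 108 FPKM in WT astrocytes. The 10 microglia markers summed to 5373 to 5805 FPKM in KO microglia and 5274 to 5510 FPKM in WT microglia, and to 30.3 to 49.95 FPKM in KO astrocytes and 26.9 to 46.3 FPKM in WT astrocytes. Oligodendrocyte markers summed to 5763 to 8197 FPKM in KO astrocytes and 4563 to 6305 FPKM in WT astrocytes, close to the 10 astrocyte markers there (6242 to 9429 and 6288 to 10868 FPKM). The astrocyte libraries thus also carried oligodendrocyte transcripts, and their part in the lysosomal levels was not tested. WT microglia 3 stood apart, with the lowest correlation within a group (r = 0.872 with WT microglia 1 on the log2 scale over genes), and results that rest on it are given with and without it. Xist, made from the silenced X chromosome of females, held 268 and 283 FPKM in WT microglia 1 and 2 and under 1 FPKM in the other microglia libraries, so Xist and genotype are partly confounded there. Gla, Lamp2 and Tfe3 are on the X chromosome.

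The promoter element was looked for in RefSeq windows (GRCm38.p6) that run from 250 bases before to 50 bases after each annotated start. Of the 40 genes, 35 had at least 1 window, 42 windows in all. Ctsb, Ctsh, Galns, Asah1 and Npc1 were not matched. The hexamer CACGTG, which reads the same on both strands, was present for 12 of the 35 genes (34.3%), against 8.09% of all 27025 genes with a window. The longer forms are nested in it and were searched on both strands. TCACGTG was present for 10 genes (28.6%, against 4.29% of all genes), TCACGTGA for 5 (14.3%, against 1.13%), and the same letters flanked by G and C, the longest palindrome searched, for 1 (2.86%, against 0.370%). The genes Cln3, Ctsa, Ctsd, Gla, Lamp1 and Mcoln1, (6 in all) had more than 1 hexamer in a window. The windows of 4 of them and of Ctss are printed as examples, 5′ to 3′ on the strand of the gene. Capitals mark the longest form of the motif at each place.
Ctsd: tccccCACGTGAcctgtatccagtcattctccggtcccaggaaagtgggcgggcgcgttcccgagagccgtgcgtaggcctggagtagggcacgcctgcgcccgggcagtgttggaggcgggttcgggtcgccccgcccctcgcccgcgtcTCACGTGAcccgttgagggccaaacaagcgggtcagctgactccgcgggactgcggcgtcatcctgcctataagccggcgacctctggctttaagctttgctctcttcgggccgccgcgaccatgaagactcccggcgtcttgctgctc
Lamp1: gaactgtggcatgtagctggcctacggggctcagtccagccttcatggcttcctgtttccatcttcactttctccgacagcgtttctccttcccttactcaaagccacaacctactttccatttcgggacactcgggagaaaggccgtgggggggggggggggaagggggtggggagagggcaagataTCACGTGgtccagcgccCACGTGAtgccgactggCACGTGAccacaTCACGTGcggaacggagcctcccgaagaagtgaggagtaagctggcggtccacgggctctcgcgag
Mcoln1: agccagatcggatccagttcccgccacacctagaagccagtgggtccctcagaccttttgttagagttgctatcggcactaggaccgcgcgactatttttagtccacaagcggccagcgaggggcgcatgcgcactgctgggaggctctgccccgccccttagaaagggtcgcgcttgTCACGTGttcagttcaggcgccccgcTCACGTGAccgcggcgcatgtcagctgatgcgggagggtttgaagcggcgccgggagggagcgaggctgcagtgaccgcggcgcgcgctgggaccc
Cln3: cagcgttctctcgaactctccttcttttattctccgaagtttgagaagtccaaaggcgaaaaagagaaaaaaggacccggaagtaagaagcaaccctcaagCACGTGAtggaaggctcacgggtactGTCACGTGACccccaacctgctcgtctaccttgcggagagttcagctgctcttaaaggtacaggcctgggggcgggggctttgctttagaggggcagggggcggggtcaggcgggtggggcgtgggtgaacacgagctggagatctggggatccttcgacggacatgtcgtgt
Ctss: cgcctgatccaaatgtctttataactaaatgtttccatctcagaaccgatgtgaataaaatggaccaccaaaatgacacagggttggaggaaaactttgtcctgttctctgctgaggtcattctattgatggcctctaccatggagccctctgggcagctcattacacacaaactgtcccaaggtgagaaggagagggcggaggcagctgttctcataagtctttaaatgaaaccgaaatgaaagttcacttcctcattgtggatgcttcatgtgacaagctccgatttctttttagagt
The Ctsd window lies at chr7:142387778-142388077 on the minus strand, and its hexamers begin 245 and 98 bases before the start. The Lamp1 window, at chr8:13158911-13159210 on the plus strand, holds 4 hexamers that begin 61, 45, 28 and 15 bases before the start. Mcoln1, which encodes a lysosomal calcium channel, has matches 71 and 45 bases before the start (chr8:3500269-3500568, plus strand). The second annotated window of Cln3, at chr7:126583187-126583486 on the minus strand, holds hexamers that begin 149 and 121 bases before the start, the second of them within the longest palindrome. The Ctss window (chr3:95526536-95526835, plus strand) has none of these letters. A match is a description of the sequence and not evidence of binding, and base composition was not matched between the genes and all promoters.

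**Figure D1:**
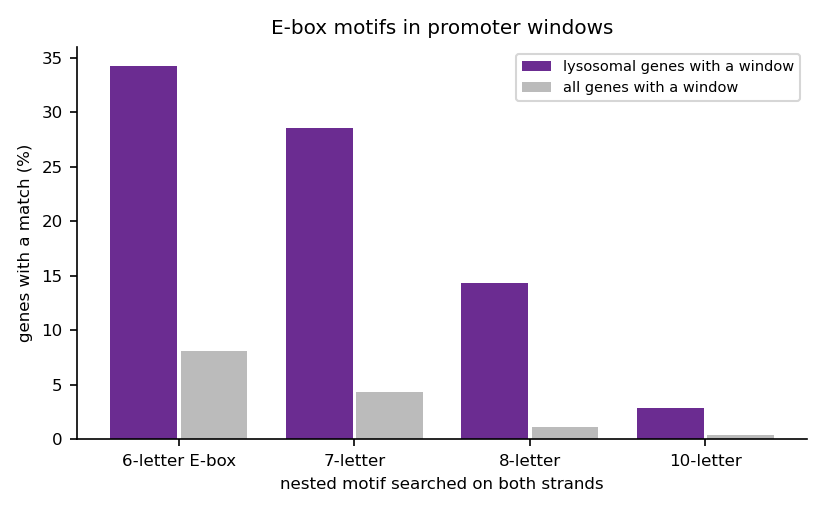
Share of genes (%, y axis) with a match to each of 4 nested E-box motifs of increasing length (x axis), for the 35 lysosomal genes with a promoter window (purple) and all 27025 genes with a window (grey). The hexamer was found for 34.3% of the lysosomal genes and 8.09% of all genes.

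The sorted cell types were compared first, to ask how much lysosomal transcript each carried. Microglia devoted more of their nuclear protein-coding message to these genes than astrocytes did. Transcripts of the mitochondrial genome and of genes not coding for protein were left out of these shares. Of the nuclear protein-coding FPKM, the 40 genes took 3.26%, 3.38% and 3.04% in KO microglia, against 0.734%, 0.704%, 0.763% and 0.735% in KO astrocytes. The shares were 3.15%, 2.97% and 2.50% in WT microglia, against 0.730%, 0.762% and 0.703% in WT astrocytes. The microglial and astrocytic shares did not overlap. A single gene, Ctsd, supplied 26.7% of the summed FPKM of the 40 genes in KO microglia and 25.7% in WT microglia. In astrocytes Lamp1 led with 20.8% (KO) and 20.3% (WT), followed by Psap, Gm2a and Ctsd. FPKM are scaled per length, so levels of different genes can be set side by side. In sorted bulk cells, fewer cells of a type and less RNA per cell cannot be told apart.

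**Figure D2:**
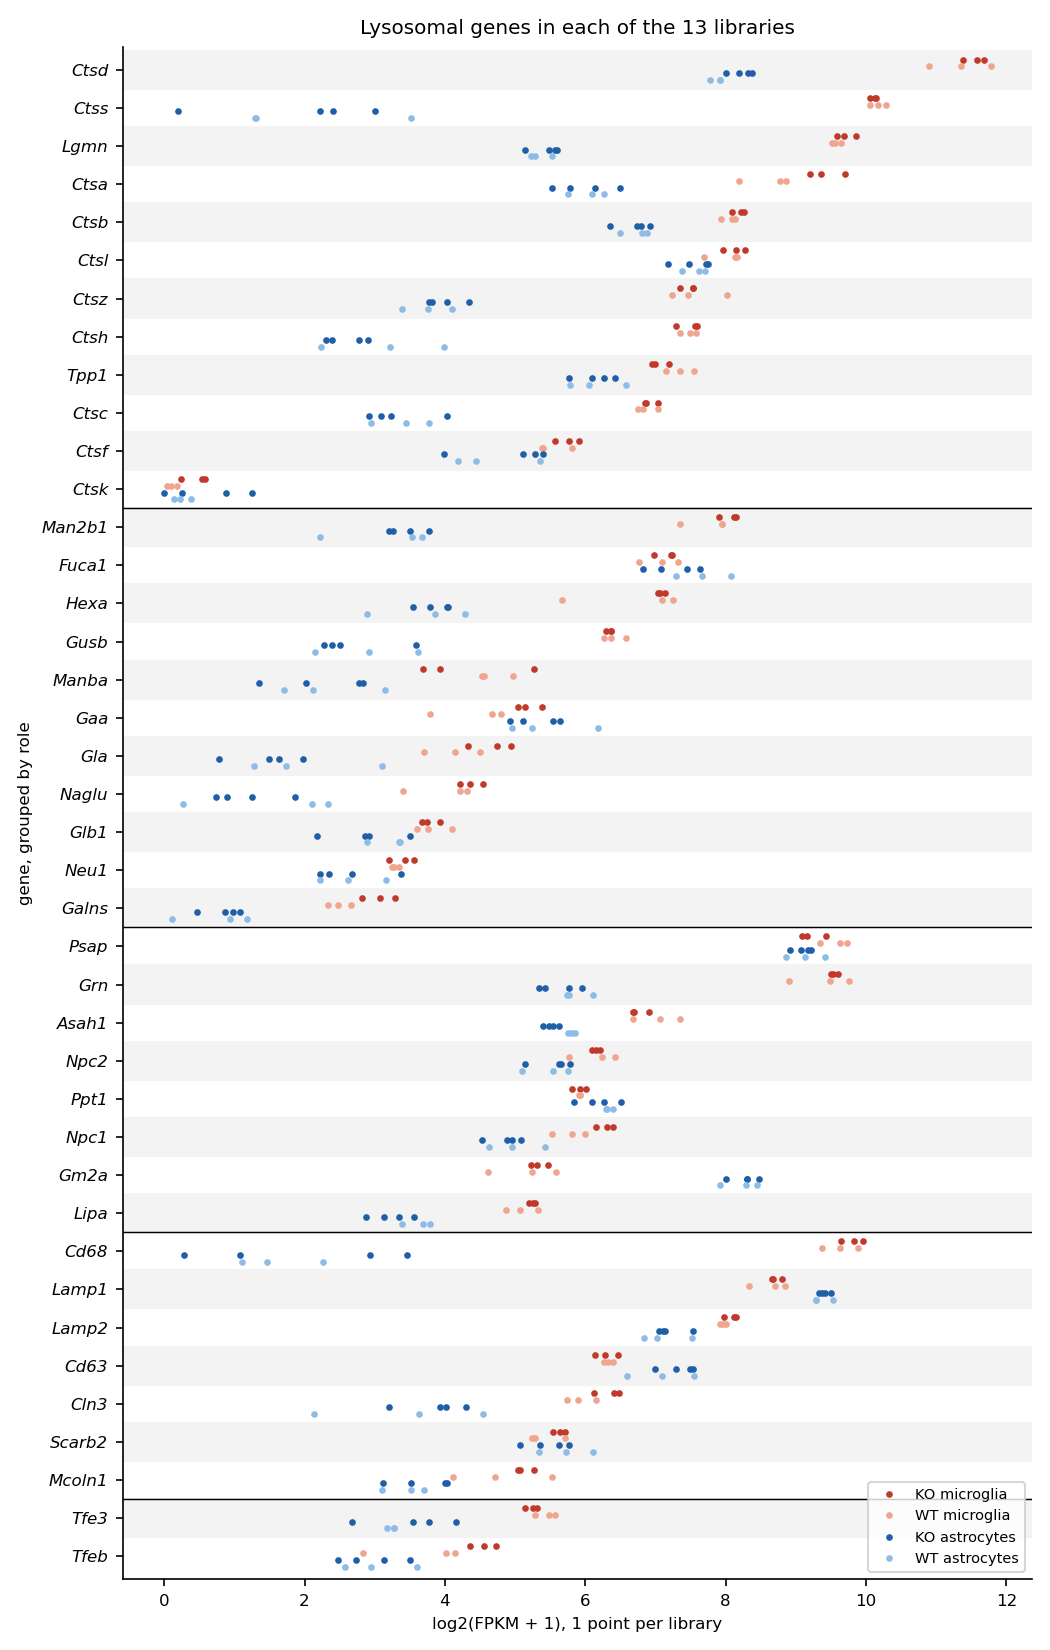
Level of each of the 40 genes as log2(FPKM + 1) (x axis), with 1 point per library, in KO microglia (dark red), WT microglia (light red), KO astrocytes (dark blue) and WT astrocytes (light blue). Lines separate proteases, glycosidases and a sulfatase, lipid genes, membrane proteins and transcription factors, from top to bottom. Ctss and Cd68 show the widest gap between the cell types, and Gm2a, Lamp1 and Cd63 lie to the right in astrocytes.

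The test was limma on log2(FPKM + 1) over all 16258 genes with a mean of at least 1 FPKM, with Benjamini-Hochberg adjustment and a threshold of 0.05. It covered 39 of the 40 genes, since Ctsk, a collagenase of osteoclasts, stayed under 1 FPKM on average. Galns was under 1 FPKM on average in astrocytes, so it passed through microglia alone and is among the genes called higher. In KO cells, 28 of the 39 were called higher in microglia, against 31.9% of all genes tested, and 3 were called lower, against 25.1%. In WT cells, 25 were called higher, against 29.1% of all genes, and 5 lower, against 24.5%. Calls in either direction covered 56.9% of all genes in KO and 53.6% in WT. The 25 genes called higher in WT were all among the 28 of the KO comparison, which added Ctsl, Glb1 and Tfeb. Gm2a, Lamp1 and Cd63 were called lower in both, and Gaa and Ppt1 in WT alone. For none of the 5 genes called in 1 genotype alone did the interaction test pass. Without regard to a test, every microglia library was above every astrocyte library for 30 of the 40 genes in KO, against 34.2% of all genes, and for 29 in WT, against 30.1%. Every microglia library was below for 3 in KO, against 28.1% of all genes, and for 5 in WT, against 25.7%. Non-overlap in either direction held for 62.3% of all genes in KO and 55.8% in WT. The median difference of the tested genes was 1.54 in KO and 1.45 in WT on the log2 scale, against 0.24 (KO) and 0.21 (WT) over all genes. Quantile normalisation moved the median of all genes to -0.08 in KO and -0.06 in WT and the share of calls that were higher to 44.2% (KO) and 43.3% (WT), from 56.0% (KO) and 54.3% (WT) in the deposited scaling. The calls on the 40 genes were then 26 higher and 4 lower in KO, and 24 higher and 7 lower in WT.

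Of the 11 tested proteases, 10 were called higher in microglia in KO and 9 in WT, and none lower. The all-gene shares were 31.9% higher and 25.1% lower in KO, and 29.1% and 24.5% in WT. Ctss encodes cathepsin S, a cysteine protease that processes antigen in myeloid cells (ENSMUSG00000038642, chromosome 3, 95526786 to 95556403, GRCm38). It held 1065, 1132 and 1118 FPKM in KO microglia, against 4.28, 0.144, 7.004 and 3.66 FPKM in KO astrocytes. In WT it held 1157, 1253 and 1067 FPKM in microglia, against 10.45, 1.47 and 1.45 FPKM in astrocytes. Every microglia library was far above every astrocyte library, with log2 differences of 7.71 (SE 0.46, limma adjusted p = 2.15e-07) in KO and 7.55 (SE 0.51, adjusted p = 5.69e-07) in WT. The astrocyte mean was 0.342% (KO) and 0.385% (WT) of the microglial mean. The microglia marker genes, taken as a sum, stood in astrocytes at 0.763% (KO) and 0.661% (WT) of their microglial level, and the part of carried-over microglial RNA was not tested.

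Lgmn encodes legumain, an asparaginyl endopeptidase that also activates cathepsins (chromosome 12, 102394084 to 102439813). It held 769, 927 and 821 FPKM in KO microglia, against 43.6, 34.4, 46.4 and 47.2 FPKM in KO astrocytes. The WT libraries held 730.2, 797 and 755 FPKM in microglia, against 36.5, 37.8 and 45.3 FPKM in astrocytes. The groups were tight and well apart, with a log2 difference of 4.24 (SE 0.16, limma adjusted p = 7.99e-09) in KO and 4.20 (SE 0.17, adjusted p = 1.95e-08) in WT. Ctsd, the main aspartic protease of the lysosome, was the most abundant gene of the set in microglia. It held 3281, 3072 and 2683 FPKM in KO microglia, against 329.9, 256, 289.9 and 318 FPKM in KO astrocytes, a log2 difference of 3.30 (SE 0.20, limma adjusted p = 2.58e-07). Among WT libraries there were 3509.6, 2614 and 1915 FPKM in microglia, against 242, 218 and 242 FPKM in astrocytes, a log2 difference of 3.43 (SE 0.22, adjusted p = 4.35e-07). Ctsh, Ctsz and Ctsc, which trim peptides from their ends, were also higher, by 3.51 to 4.77 in KO and 3.48 to 4.19 in WT on the log2 scale. Ctsa and Ctsb had smaller differences (3.41 and 1.39 in KO, 2.54 and 1.19 in WT), and so did the tripeptidyl peptidase Tpp1 (0.78 in KO and 1.04 in WT).

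Ctsl, a broad cysteine protease, lay closest to equal levels. It held 248.6, 309.5 and 283 FPKM in KO microglia, against 177, 144, 214 and 209.6 FPKM in KO astrocytes, a log2 difference of 0.50 (SE 0.16, limma adjusted p = 0.0230). The WT microglia held 285, 279 and 206 FPKM, against 197, 209 and 165 FPKM in WT astrocytes, and those libraries overlapped. The WT difference of 0.30 (SE 0.18, adjusted p = 0.190) was not called and turned to -0.06 under quantile normalisation, while it was called under median-of-ratios size factors (0.44, adjusted p = 0.0468) and without WT microglia 3 (0.45, adjusted p = 0.0435). The KO call was lost without KO astrocytes 1, KO microglia 2 or KO microglia 3, and under quantile normalisation (0.27, adjusted p = 0.230). Ctsf was not called in either genotype (0.59 in both, SE 0.30 in KO and 0.32 in WT), but was called in KO with day 12 alone (0.48, adjusted p = 0.0356). Exons of 12 of the 40 genes overlap another annotated gene, and strand use is not stated, so the levels of Ctsb, Ctsl, Ctsz, Ctsd and Ctsa among the proteases are uncertain to that extent.

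Among the enzymes that cut sugar chains, 8 of 11 were called higher in KO microglia and 7 of 11 in WT microglia. The all-gene shares were 31.9% in KO and 29.1% in WT. These counts include Galns, which averaged 0.822 FPKM in KO astrocytes and 0.754 FPKM in WT astrocytes. It passed the filter through microglia alone. Man2b1, the lysosomal alpha-mannosidase that trims N-glycans (chromosome 8, 85083270 to 85098282), held 278, 281 and 239 FPKM in KO microglia, against 12.7, 8.198, 10.4 and 8.56 FPKM in KO astrocytes. In WT it held 246, 245 and 162 FPKM in microglia, against 11.7, 3.67 and 10.53 FPKM in astrocytes. The gap was of the same size in both genotypes, 4.65 (SE 0.35, limma adjusted p = 1.03e-06) in KO and 4.64 (SE 0.38, adjusted p = 2.38e-06) in WT. Gusb (beta-glucuronidase), Hexa (the alpha subunit of beta-hexosaminidase), Gla (alpha-galactosidase), Naglu, Galns and Manba were higher too, by 1.79 to 3.49 in KO and 1.86 to 3.29 in WT. Glb1, the beta-galactosidase, passed only in KO (0.95, adjusted p = 0.0195, against 0.67 and 0.107 in WT), and its KO call was lost without KO astrocytes 1 or KO microglia 1, under quantile normalisation and with the day 12 libraries alone. Neu1, the sialidase, was not called (0.69 in KO and 0.54 in WT), except in KO without KO astrocytes 4 (0.96, adjusted p = 0.0154).

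Gaa and Fuca1 stood out from this pattern. Gaa, the acid alpha-glucosidase that breaks down glycogen (chromosome 11, 119267887 to 119285454), held 32.1, 40.9 and 34.3 FPKM in KO microglia, against 49.1, 29.6, 33.5 and 45.3 FPKM in KO astrocytes. Those libraries overlapped, and the log2 difference was -0.22 (SE 0.33, limma adjusted p = 0.5997). The WT libraries held 26.7, 24.4 and 12.9 FPKM in microglia, against 30.1, 71.8 and 36.7 FPKM in astrocytes. The WT difference of -1.18 (SE 0.36, adjusted p = 0.0178) was called lower, but not without WT microglia 3 (-0.87, adjusted p = 0.0596) or WT astrocytes 2 (-0.77, adjusted p = 0.110). Fuca1, the fucosidase, held 148, 149.8 and 125 FPKM in KO microglia, against 112, 173, 197 and 134 FPKM in KO astrocytes. Among WT libraries there were 159, 135 and 108 FPKM in microglia, against 156, 269 and 202 FPKM in astrocytes, and no difference was called, except in WT under quantile normalisation (-0.88, adjusted p = 0.0164).

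The lipid genes were split between the cell types. Gm2a, the activator protein that lifts gangliosides to beta-hexosaminidase (chromosome 11, 55098115 to 55113029), held 38.7, 43.4 and 36.4 FPKM in KO microglia, against 355, 255, 315 and 315 FPKM in KO astrocytes. In WT it held 46.8, 36.9 and 23.4 FPKM in microglia, against 312, 347 and 240.4 FPKM in astrocytes. Every astrocyte library was above every microglia library, with log2 differences of -3.04 (SE 0.21, limma adjusted p = 7.17e-07) in KO and -3.21 (SE 0.23, adjusted p = 1.07e-06) in WT. Its partner enzyme ran the other way, since Hexa averaged 134 ± 4.48 FPKM in KO microglia and 13.6 ± 2.32 FPKM in KO astrocytes (SD, n = 3 and n = 4). The activator was the more abundant of these transcripts in KO astrocytes and the less abundant in KO microglia.

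Grn, the progranulin gene, averaged 748 ± 26.9 FPKM in KO microglia and 49.0 ± 10.01 FPKM in KO astrocytes (SD, n = 3 and n = 4), and 686 ± 193 FPKM in WT microglia and 58.1 ± 8.65 FPKM in WT astrocytes (SD, n = 3 each). Its log2 difference was 3.87 (limma adjusted p = 1.68e-07) in KO and 3.43 (adjusted p = 9.31e-07) in WT. Lipa, the acid lipase for cholesteryl esters, was higher by 2.04 in KO and 1.49 in WT. Asah1, the acid ceramidase, was higher by 1.26 in KO and 1.23 in WT. Npc1, the membrane protein that exports cholesterol, was higher by 1.45 in KO and 0.81 in WT, and the WT call was lost without WT microglia 3 (0.71, adjusted p = 0.0521) or WT astrocytes 1 (0.58, adjusted p = 0.0975). Npc2, which hands cholesterol to it, was not called with all libraries in the deposited scaling (0.54 in KO and 0.60 in WT). It was called higher under median-of-ratios size factors (0.62, adjusted p = 0.0308 in KO, and 0.74, adjusted p = 0.0220 in WT), in KO with the day 12 libraries alone (0.46, adjusted p = 0.0165), and in WT without WT microglia 3 (0.78, adjusted p = 0.0223) or WT astrocytes 3 (0.71, adjusted p = 0.0361).

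Psap, the precursor of the saposins that present sphingolipids to their hydrolases, was nearly level. It held 690.3, 542 and 569 FPKM in KO microglia, against 579.6, 481, 537 and 595 FPKM in KO astrocytes. The WT libraries held 792, 848 and 647 FPKM in microglia, against 559, 683 and 462 FPKM in astrocytes. Libraries overlapped in both genotypes, with log2 differences of 0.05 (SE 0.16) in KO and 0.32 (SE 0.17, limma adjusted p = 0.134) in WT, neither of them called. Under quantile normalisation they were -0.16 in KO and -0.05 in WT, and under median-of-ratios size factors the WT difference was called (0.47, adjusted p = 0.0342). Ppt1, the palmitoyl-protein thioesterase, held 55.3, 63.4 and 59.7 FPKM in KO microglia, against 67.3, 56.6, 75.7 and 90.3 FPKM in KO astrocytes, and was not called (-0.33, SE 0.15, adjusted p = 0.0952), except under quantile normalisation (-0.44, adjusted p = 0.0462). The WT difference of -0.50 (SE 0.17, adjusted p = 0.0277) was called, but not without WT microglia 2, WT astrocytes 1 or WT astrocytes 3, nor under median-of-ratios size factors (-0.36, adjusted p = 0.0955).

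Of the 7 membrane proteins, 4 were called higher and 2 lower in each genotype. Among all genes 31.9% were higher and 25.1% lower in KO, and 29.1% and 24.5% in WT. Cd68, the heavily glycosylated endolysosomal protein used as a macrophage marker (chromosome 11, 69664213 to 69666153), held 801, 991 and 907 FPKM in KO microglia, against 9.99, 0.211, 6.63 and 1.11 FPKM in KO astrocytes. Among WT libraries there were 948, 663 and 789.9 FPKM in microglia, against 1.77, 3.79 and 1.16 FPKM in astrocytes. The log2 difference was 7.49 (SE 0.53, limma adjusted p = 6.89e-07) in KO and 7.51 (SE 0.57, adjusted p = 1.53e-06) in WT. Lamp1, a major structural protein of the lysosomal membrane (chromosome 8, 13159161 to 13175338), held 402, 447 and 409 FPKM in KO microglia, against 723, 645, 662 and 685 FPKM in KO astrocytes. In WT it held 460.2, 417 and 323 FPKM in microglia, against 624, 739.6 and 622 FPKM in astrocytes. It was lower in microglia with no overlap, by -0.72 (SE 0.15, adjusted p = 0.00213) in KO and -0.77 (SE 0.17, adjusted p = 0.00245) in WT. Its relative Lamp2, needed for chaperone-mediated autophagy and autophagosome fusion, went the other way, with a difference of 0.80 (adjusted p = 0.00275) in KO and 0.74 (adjusted p = 0.00753) in WT. When the WT libraries of day 12 were fitted alone, a fit with 5 libraries, 8 WT calls were lost, those on Lamp1, Lamp2, Cd63, Mcoln1, Gla, Npc1, Gaa and Ppt1 (adjusted p = 0.0577 to 0.176). The WT call on Lamp2 was also lost under quantile normalisation (0.41, adjusted p = 0.0853).

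Cd63, a tetraspanin of late endosomes and exosomes, held 87.1, 76.9 and 69.5 FPKM in KO microglia, against 126, 184, 179 and 155 FPKM in KO astrocytes, a log2 difference of -0.91 (SE 0.19, limma adjusted p = 0.00183). The WT libraries held 83.3, 76.2 and 79.5 FPKM in microglia, against 135, 96.0 and 186 FPKM in astrocytes, a difference of -0.59 (SE 0.20, adjusted p = 0.0322). The WT call was lost without WT microglia 2, WT microglia 3, WT astrocytes 1 or WT astrocytes 3 (-0.47 to -0.59, adjusted p = 0.0586 to 0.136), and under median-of-ratios size factors (-0.44, adjusted p = 0.0916). Cln3, the protein lost in juvenile Batten disease, was higher in microglia by 2.75 in KO and 2.85 in WT. Mcoln1 was higher by 1.54 in KO and 1.45 in WT, and the WT call was lost with day 12 alone (1.39, adjusted p = 0.0768). Scarb2, which carries glucocerebrosidase to the lysosome, was not called (0.05 in KO and -0.50 in WT), but was called lower in WT without WT microglia 1 (-0.65, adjusted p = 0.0177) and under quantile normalisation (-0.59, adjusted p = 0.0282).

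Of the transcription factors, Tfe3 held 34.3, 38.8 and 37.3 FPKM in KO microglia, against 10.7, 12.6, 16.9 and 5.42 FPKM in KO astrocytes. Among WT libraries there were 38.1, 43.6 and 46.4 FPKM in microglia, against 8.68, 8.01 and 8.66 FPKM in astrocytes. It was higher in microglia by 1.74 (SE 0.30, limma adjusted p = 0.000533) in KO and 2.27 (SE 0.32, adjusted p = 0.000166) in WT. Tfeb held 22.6, 19.4 and 25.4 FPKM in KO microglia, against 10.4, 7.75, 5.66 and 4.58 FPKM in KO astrocytes, a difference of 1.53 (SE 0.39, adjusted p = 0.00648). In WT it held 16.7, 15.2 and 6.11 FPKM in microglia, against 11.2, 6.73 and 4.98 FPKM in astrocytes. The WT groups overlapped through WT microglia 3 alone (0.55, SE 0.42, adjusted p = 0.298). Without that library Tfeb was still not called between the WT cell types. By WT call, the hexamer was present for 7 of the 20 genes with a window that were higher in microglia, 2 of the 5 that were lower and 3 of the 9 that were not called. Lamp1 and Gaa are the E-box genes called lower, and Ctss and Cd68, with the widest gaps, have no hexamer in their windows.

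**Figure D3:**
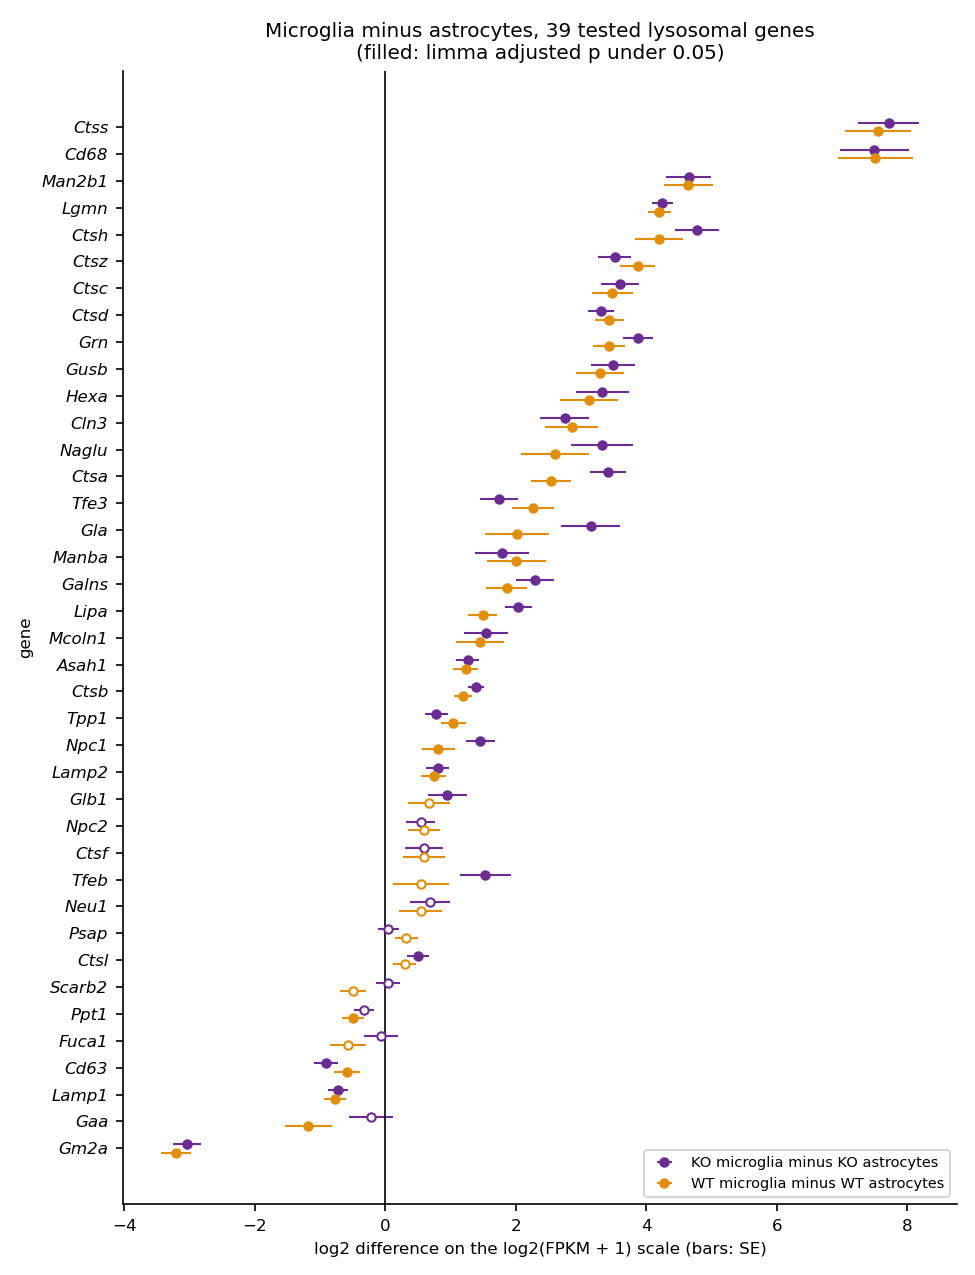
Log2 difference of microglia minus astrocytes (x axis, bars are SE) for the 39 tested genes (y axis), in KO (purple, n = 3 and n = 4) and WT (orange, n = 3 each), filled where the limma adjusted p was under 0.05. Ctss and Cd68 lie above 7 in both genotypes and Gm2a near -3.

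The rest of the lysosomal machinery was followed in 6 further lists with 135 genes. In KO, 57 of the 125 tested were called higher in microglia, against 31.9% of all genes, and 29 lower, against 25.1%. In WT 56 were higher, against 29.1% of all genes, and 32 lower, against 24.5%. These totals include genes under 1 FPKM on average in 1 cell type, which passed the filter through the other cell type alone. Other hydrolases counted 18 higher and 6 lower of 33 in KO, and 17 higher and 6 lower in WT. Of the 36 listed, 31 (KO) and 30 (WT) reached a mean of 1 FPKM in astrocytes. Some of those tested, Pla2g15 among them, thus passed the filter through microglia alone. Ifi30, a thiol reductase of antigen processing, was higher by 5.38 in KO and 5.98 in WT. Smpd1, the acid sphingomyelinase, was lower, at 8.73 ± 0.333 FPKM in KO microglia and 55.0 ± 17.9 FPKM in KO astrocytes (SD, n = 3 and n = 4; -2.57 in KO and -2.48 in WT). Siae, a sialic acid esterase, was lower by -1.16 in KO and -1.27 in WT.

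Of 18 tested subunits of the proton pump, 3 were higher and 5 lower in KO, and 3 higher and 6 lower in WT. Over all genes the shares were 31.9% higher and 25.1% lower in KO, and 29.1% and 24.5% in WT. Its summed level was 956 to 997 FPKM in KO microglia, against 893 to 1326 FPKM in KO astrocytes, and 858 to 1089 FPKM in WT microglia, against 969.5 to 1110.0 FPKM in WT astrocytes. These ranges overlapped, whereas the 40 genes summed to 10615 to 11806 FPKM in KO microglia, against 2925 to 3427 FPKM in KO astrocytes. Atp6v0a1 was higher by 1.48 in KO and 1.35 in WT, and Atp6ap2 by 0.80 in KO and 1.12 in WT. Atp6v0e2 was lower by -3.83 in KO and -4.97 in WT, and Atp6v1e1 by -1.19 in KO and -1.31 in WT.

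Other membrane proteins counted 15 higher and 5 lower of 31 in KO, and 17 higher and 8 lower in WT. For this list and those below, the all-gene shares are 31.9% higher and 25.1% lower in KO, and 29.1% and 24.5% in WT. Slc15a3, a peptide and histidine transporter, was higher by 7.38 in KO and 7.42 in WT, and Laptm5 by 7.36 in KO and 6.95 in WT. Slc15a3 did not reach a mean of 1 FPKM in astrocytes, so its call passed the filter through microglia alone. Of the 35 genes in this list, 28 reached that mean in the astrocytes of each genotype, so Slc15a3 was not the only tested gene to pass in this way. Laptm4b was lower by -2.68 in KO and -2.81 in WT, and Abca2 by -1.67 in KO and -2.82 in WT. Genes of delivery to the lysosome counted 9 higher and 5 lower of 21 in each genotype, with Nagpa (2.82 in KO, 3.83 in WT) and Lyst (1.85 in KO, 1.89 in WT) higher and Arl8a (-1.96 in KO, -1.86 in WT) and Gnptab (-2.21 in KO, -1.34 in WT) lower. Nutrient sensing genes counted 7 higher and 7 lower of 16 in KO and 5 higher and 6 lower in WT. Among them Flcn (2.69 in KO, 3.35 in WT) and Fnip1 (1.85 in KO, 2.21 in WT), partners that act on TFEB and TFE3, were higher, while Rragd (-3.22 in KO, -4.19 in WT) and Rragb (-1.53 in KO, -1.82 in WT) were lower. Rragd and Rragb did not reach a mean of 1 FPKM in microglia, so their calls passed the filter through astrocytes alone. Of the 7 cathepsin inhibitors listed, 2 reached a mean of 1 FPKM in astrocytes, so the others could pass the filter through microglia alone. Their calls are part of the totals over the 6 lists, but no count is given for this list. Cst3, the secreted cystatin C, was lower, at 7522 ± 539.9 FPKM in KO microglia and 10573 ± 1253 FPKM in KO astrocytes (SD, n = 3 and n = 4; -0.52, limma adjusted p = 0.0197), with -0.55 in WT.

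KO microglia were then compared with WT microglia, to ask whether lysosomal transcripts differ in a cord without interleukin-33. None of the 39 tested genes was called by limma, in a comparison that called 0.0818% of 15890 genes, 0.0566% higher and 0.0252% lower. At an unadjusted p under 0.05 there were 4 (Ctsa, Npc1, Galns and Gaa), against 7.95% of all genes. The median difference was 0.14, and 28 of the 39 differences were positive and 11 negative, against 52.3% and 47.7% of all genes. The SE of the differences ran between 0.13 (Lamp2) and 0.44 (Manba), with a median of 0.19, which sets the size of change that could be seen. Every KO library was above every WT library for 6 of the 40 genes (Ctsa, Gaa, Galns, Npc1, Tfeb and Ctsk) and below for none, against 8.41% and 7.48% of all genes (15.9% in either direction).

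Ctsa, the carboxypeptidase that protects NEU1 and beta-galactosidase in a shared complex (chromosome 2, 164832873 to 164841032), held 659, 831 and 591 FPKM in KO microglia, against 464, 435 and 292 FPKM in WT microglia. The groups did not overlap, with a log2 difference of 0.82 (SE 0.24, limma adjusted p = 0.553). Its exons overlap those of Pltp and Neurl2 on the other strand, and Pltp held 16.5, 19.8 and 14.3 FPKM in KO microglia, against 44.8, 32.1 and 21.8 FPKM in WT microglia. Npc1 (chromosome 18, 12189692 to 12236400) held 83.1, 78.4 and 70.5 FPKM in KO microglia, against 45.3, 55.2 and 62.9 FPKM in WT microglia, a difference of 0.51 (SE 0.18, adjusted p = 0.582). Its exons overlap Rmc1 on the other strand. Galns, the sulfatase for keratan sulfate and chondroitin sulfate (chromosome 8, 122578242 to 122611463), held 8.75, 6.05 and 7.47 FPKM in KO microglia, against 5.31, 4.58 and 4.06 FPKM in WT microglia, a difference of 0.57 (SE 0.21, adjusted p = 0.595). Gaa held 32.1, 40.9 and 34.3 FPKM in KO microglia, against 26.7, 24.4 and 12.9 FPKM in WT microglia, a difference of 0.77 (SE 0.30, adjusted p = 0.595). Tfeb held 22.6, 19.4 and 25.4 FPKM in KO microglia, against 16.7, 15.2 and 6.11 FPKM in WT microglia, a difference of 0.88 (SE 0.38, adjusted p = 0.595). These 5 had separate libraries, but none passed the adjustment. Ctsk was separate only at trace levels, 0.181 to 0.495 FPKM in KO microglia and 0.0305 to 0.130 FPKM in WT microglia.

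**Figure D4:**
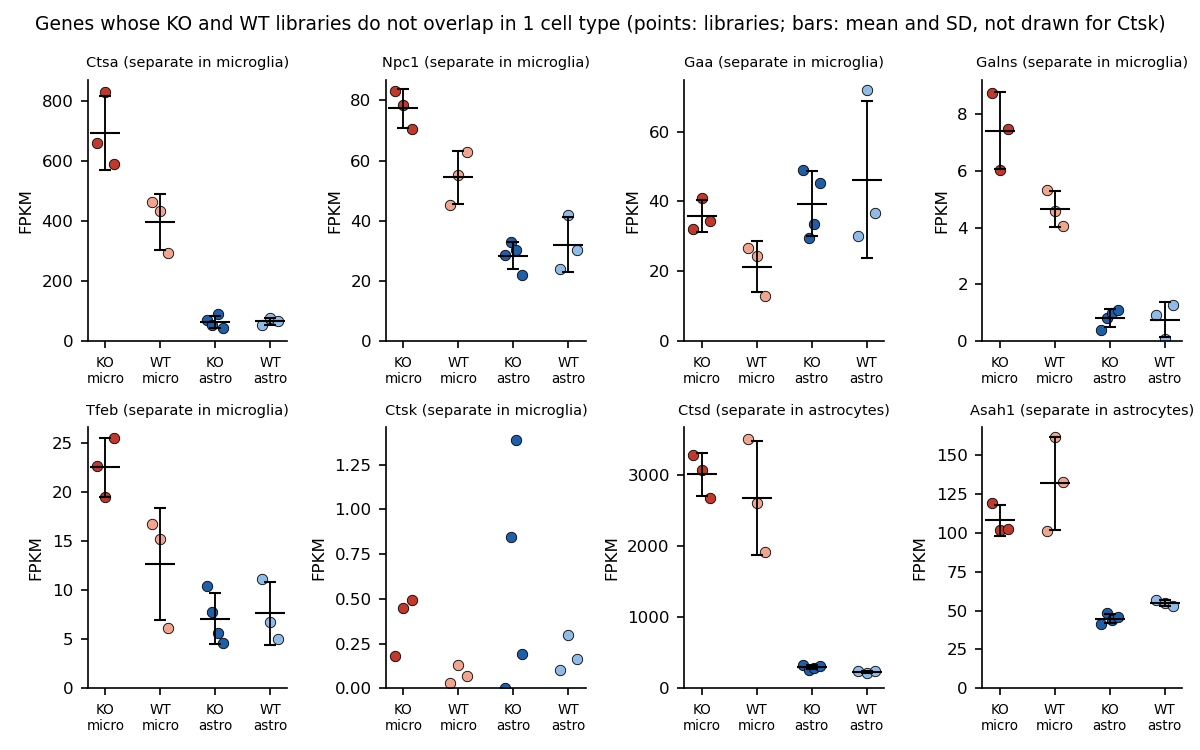
FPKM by library (y axis from 0) in KO microglia, WT microglia, KO astrocytes and WT astrocytes, left to right, for the 8 genes whose KO and WT libraries are separate in 1 cell type. Points are libraries and bars the mean and SD, which are not drawn for Ctsk. In the Tfeb and Gaa panels WT microglia 3 is the lowest microglia library, at 6.11 and 12.9 FPKM.

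Among the other abundant genes of the set, Ctsd held 3281, 3072 and 2683 FPKM in KO microglia, inside the WT range of 1915 to 3509.6 FPKM (0.21, SE 0.26, limma adjusted p = 0.815). The differences of Ctss (-0.07), Cd68 (0.18), Lgmn (0.14), Grn (0.17) and Lamp1 (0.08) had SE of 0.14 to 0.24. The lowest difference, -0.39 (SE 0.44), was that of Manba, and the next was Psap at -0.34 (SE 0.18, adjusted p = 0.648), with 690.3, 542 and 569 FPKM in KO microglia, against 792, 848 and 647 FPKM in WT microglia.

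WT microglia 3 was the lowest of the 6 microglia libraries for 18 of the 39 genes (46.2%), against 24.3% of all genes. Without it the median difference was -0.01, and 9 genes changed sign (Ctsd, Ctsh, Ctsl, Fuca1, Gm2a, Grn, Hexa, Lamp1 and Npc2). Hexa is the plainest case, with 133, 139 and 131 FPKM in KO microglia, against 151, 136 and 49.9 FPKM in WT microglia. Its difference was 0.41 (SE 0.43, limma adjusted p = 0.782) with all libraries and -0.09 (adjusted p = 0.819) without WT microglia 3. With Xist as a covariate Hexa was called higher in KO (1.49, adjusted p = 0.0291), a fit in which WT microglia 3 is the only WT library without Xist. The gene-wise differences of Ctsa (0.61), Npc1 (0.62), Galns (0.49), Gaa (0.46) and Tfeb (0.47) kept their sign without that library, with adjusted p = 0.448 to 0.577. Immediate-early and heat-shock genes summed to 2969 to 3380 FPKM in KO microglia and 4480 to 6028 FPKM in WT microglia. Border macrophage markers summed to 777 to 881 FPKM in KO microglia and 848 to 1754 FPKM in WT microglia, neutrophil markers to 55.2 to 118 and 131 to 261 FPKM, and oligodendrocyte markers to 1617 to 2646 and 1074 to 1825 FPKM. Their part in the lysosomal values was not tested.

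**Figure D5:**
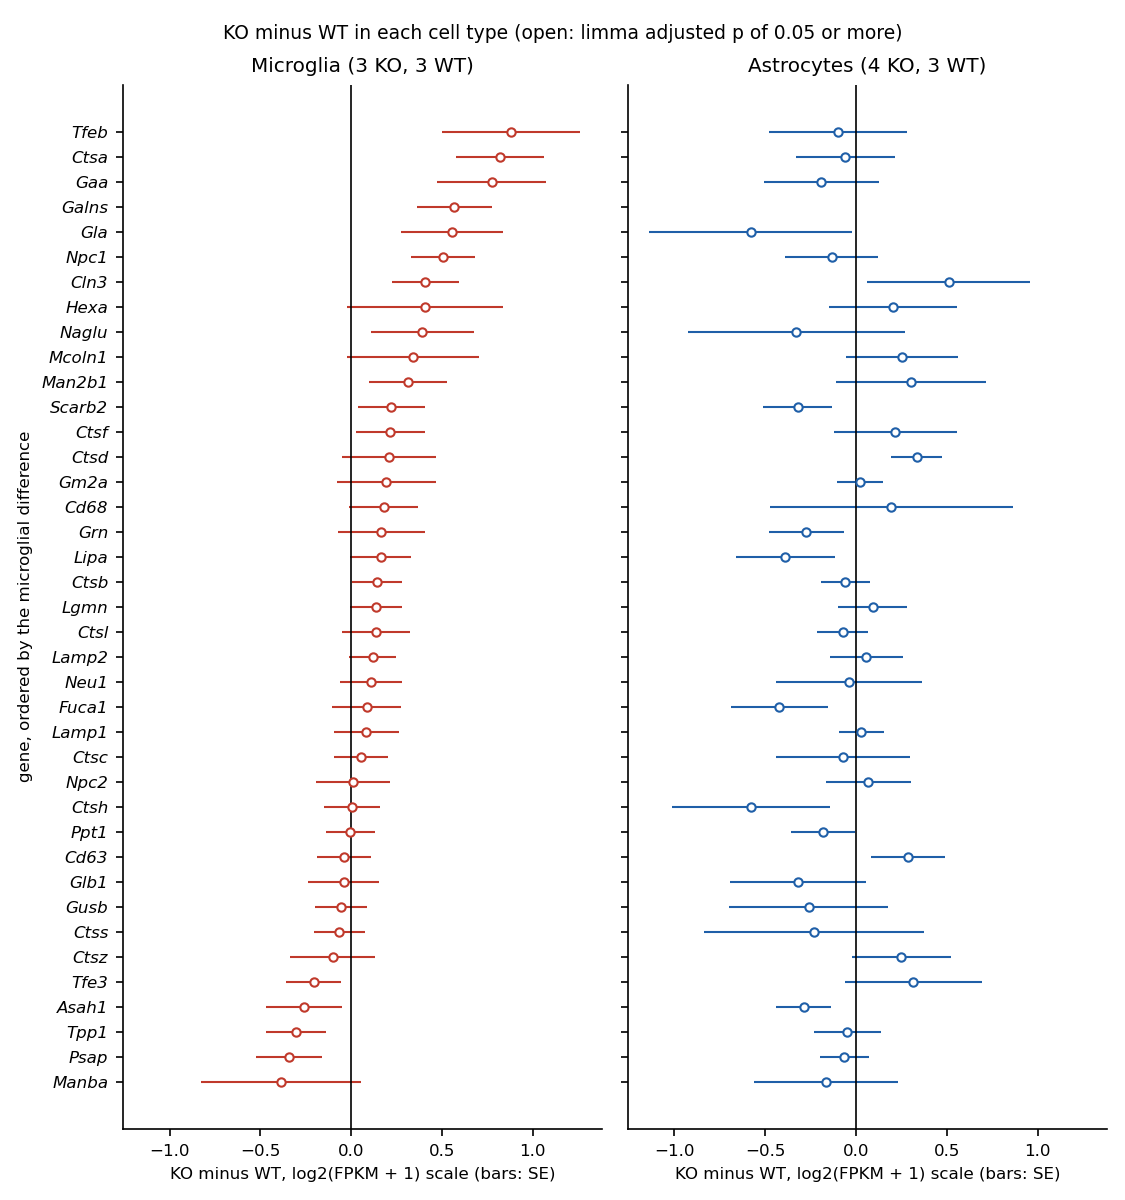
Log2 difference of KO minus WT (x axis, bars are SE) for each tested gene (y axis, in the order of the microglial difference), in microglia on the left (3 KO, 3 WT) and astrocytes on the right (4 KO, 3 WT). All points are open, since no adjusted p was under 0.05, and Tfeb, Ctsa and Gaa lie farthest right in microglia.

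In the other lysosomal lists, none of the 125 tested genes was called between KO and WT microglia by limma, and 10 had an unadjusted p under 0.05 (7.95% of all genes did). The smallest p among the other hydrolases was that of Dnase2a, the acid nuclease, at 50.6, 50.9 and 47.6 FPKM in KO microglia, against 34.4, 30.2 and 33.9 FPKM in WT microglia (0.59, SE 0.14, adjusted p = 0.508). Sort1, the sorting receptor, held 51.7, 54.4 and 50.8 FPKM in KO microglia, against 39.1, 35.0 and 32.6 FPKM in WT microglia (0.55, SE 0.14, adjusted p = 0.533). The differences were 1.10 for Mfsd12 (SE 0.32, adjusted p = 0.549), 0.25 for the pump subunit Atp6v0b (SE 0.14, adjusted p = 0.658), 0.41 for Lamtor3 (SE 0.25, adjusted p = 0.701, for 1 of the 2 identifiers that carry this symbol) and -0.89 for the stefin Stfa1 (SE 0.26, adjusted p = 0.550). The authors' deposited table for microglia lists 483 genes with adjusted p under 0.05, against 39171 genes in the FPKM table. None of the 40 is among the 483, and at so small a share their absence says little about the set. Of the other lysosomal lists the authors' table holds only Abca2, a lipid transporter abundant in oligodendrocytes. In the authors' deposited table Abca2 had a mean of 2181 normalised counts in KO and 1163 in WT, with a log2 ratio of WT over KO of -0.95 (adjusted p = 0.0208). By FPKM it held 42.5, 44.4 and 39.5 in KO microglia, against 25.0, 27.4 and 11.9 in WT microglia (1.02, SE 0.33, limma adjusted p = 0.557). The summed oligodendrocyte markers given with the microglial results averaged 2204 FPKM in KO microglia and 1457 FPKM in WT microglia, with overlapping ranges, and the part of such cells in Abca2 was not tested.

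KO astrocytes were compared with WT astrocytes with age as a covariate. None of the 38 tested genes was called by limma, and none had an unadjusted p under 0.05, against 0.0224% called (0.00746% higher and 0.0149% lower) and 4.19% at the unadjusted threshold among 13397 genes. Ctsk and Galns were under 1 FPKM on average and not tested. The median difference was -0.06, with 15 positive and 23 negative, against 50.2% and 49.8% of all genes, and the SE ran between 0.13 (Lamp1) and 0.67 (Cd68), wider than in microglia. Libraries of the genotypes were separate for 2 of the 40 genes, Ctsd above and Asah1 below, against 4.68% of all genes (2.32% above and 2.36% below).

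Ctsd held 329.9, 256, 289.9 and 318 FPKM in KO astrocytes, against 242, 218 and 242 FPKM in WT astrocytes. All KO libraries were higher, and the difference was 0.33 (SE 0.14, limma adjusted p = 0.921). Asah1 (chromosome 8, 41340197 to 41374773) held 41.3, 48.2, 44.0 and 45.7 FPKM in KO astrocytes, against 57.1, 54.8 and 53.1 FPKM in WT astrocytes. All KO libraries were lower, with a difference of -0.29 (SE 0.15, adjusted p = 0.921). Scarb2 held 39.8, 32.5, 48.3 and 53.4 FPKM in KO astrocytes, against 52.2, 67.9 and 39.5 FPKM in WT astrocytes (-0.32, SE 0.19, adjusted p = 0.921). Fuca1 held 112, 173, 197 and 134 FPKM in KO astrocytes, against 156, 269 and 202 FPKM in WT astrocytes (-0.42, SE 0.27, adjusted p = 0.921). Both sets overlapped. In the other lists, 5 of 117 tested genes had an unadjusted p under 0.05, against 4.19% of all genes, and none was called. The smallest p per list were those of Acp2 (0.70, adjusted p = 0.921), Atp6v1a (0.36), Sidt2 (-0.66), Vps39 (-1.24), Mitf (-1.77) and Cstb (0.24), all with the adjusted p over 0.9. The authors' deposited table for astrocytes lists 10 genes, against 39171 genes in the FPKM table, and none of the lysosomal genes. At that share their absence says little.

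The interaction, which asks whether the KO minus WT difference itself differs between microglia and astrocytes, called none of the 39 genes, against 0.141% of 16258 genes (0.0861% higher and 0.0554% lower). One had an unadjusted p under 0.05, against 6.62% of all genes. It was Ctsa, with 0.88 (SE 0.39, limma adjusted p = 0.751). The interaction of Tfeb was 0.98 (SE 0.55, adjusted p = 0.795) and that of Gaa 0.96 (SE 0.47, adjusted p = 0.775), so the calls on Tfeb and Gaa in 1 genotype only were not shown to differ between genotypes. Ctsl, Glb1 and Ppt1 had interactions of 0.21, 0.28 and 0.17.

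Age was examined within astrocytes, with 5 libraries at day 12 and 2 at day 9. No gene of the set was called by limma for day 12 minus day 9, against 0.0970% of 13397 genes (0.0523% higher and 0.0448% lower), and 7 had an unadjusted p under 0.05, against 8.61% of all genes. All 7 differences were positive, that is higher at day 12. Gm2a ranged over 312 to 355 FPKM at day 12, against 255 (KO) and 240.4 (WT) FPKM at day 9, a difference of 0.40 (SE 0.14, limma adjusted p = 0.487). Ctsb ranged over 105 to 120.5 FPKM at day 12, against 81.1 (KO) and 88.9 (WT) FPKM at day 9 (0.41, SE 0.15, adjusted p = 0.518). The others were Ctss (1.77), Scarb2 (0.54), Ctsl (0.39), Tpp1 (0.51) and Manba (1.06), with adjusted p = 0.525 to 0.562. Both day 9 libraries lay below every day 12 library for these 7 and for Psap, 8 of the 40 genes, against 8.27% of the genes tested. Of the 8 microglia markers tested, 7 had a positive difference for age (median 1.12), and their sum over all 10 was 26.9 to 49.95 FPKM at day 12, against 30.3 (KO) and 33.2 (WT) FPKM at day 9. Of the 10 oligodendrocyte markers 9 had a negative difference, with sums of 5288 to 8197 FPKM at day 12, against 5763 (KO) and 4563 (WT) FPKM at day 9. Their part in the age differences was not tested.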

How the data were processed

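Spinal cord cells were sorted by flow cytometry into CD11b+ microglia and Aldh1l1-GFP+ astrocytes, and cDNA libraries were prepared with a NuGEN kit, per the labels' protocols. Whether strand is kept is not stated. The submitters' processing notes name build GRCm38, Cufflinks with Cuffnorm, HTSeq 0.6.1p1 and DESeq2, the aligners Bowtie2 2.2.3 and TopHat2 2.0.11, and FastQC. The authors deposited FPKM for 39171 genes in 13 libraries, with a scaling between libraries that is not stated. Per the file headers, the authors' 2 tables of genotype differences hold a normalised signal (mean normalised counts), a log2 fold change of WT over KO, its test score, a p-value and an adjusted p.

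No count model or counting interval was used, because FPKM do not keep whole reads. Steps between the lowest values put the depth of the microglia libraries at 71.9% to 100% of KO microglia 2 and of the astrocyte libraries at 33.0% to 62.5%, so low genes are noisier in astrocytes. The absolute depth is unknown. Genes were placed with GENCODE release M21 (37605 identifiers found).

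The test was two-sided limma with a trend (version 3.58.1, R version 4.3.3) on log2(FPKM + 1), for genes with a mean of at least 1 FPKM, adjusted by Benjamini-Hochberg over all genes. Changes of low genes are understated on this scale. One fit held the microglia, another the astrocytes with age, and a fit of all 13 libraries with age gave the cell type differences and the interaction. The fits were tested on simulated data. Between KO and WT microglia, 4% of the genes with a true log2 difference of 1 were called, and 43% of those with 2. Between KO and WT astrocytes these shares were 1% and 34%. Between the cell types they were 9% and 52% in WT and 5% and 58% in KO. Most differences of 1 were thus missed in these simulations. Only 100 genes of each size were changed in a simulation, whereas 53.6% (WT) and 56.9% (KO) of all genes were called between the real cell types. The adjustment is less strict when many genes differ, so the simulated shares do not give the power of the cell type comparisons. The series text calls the replicates biological.

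The gene set, the lists, the tests and the rule for named genes were chosen with earlier results of these data known. The rule gives values by library for the 4 largest differences per direction between WT cell types and the 2 closest to 0, and for the 4 smallest p per genotype comparison. Values by library of other genes (among them Ppt1, Tfeb, Tfe3, Hexa, Fuca1, Ctsk, Pltp and Ctsd in microglia) were added after their values were seen. Alternatives were a pseudocount of 0.1, no filter, quantile normalisation, size factors, a replicate block, each library left out, Xist as a covariate, no age term and day 12 alone. The values of 1 gene of the other lysosomal lists are not reported here.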

Additional observations from a re-analysis of the deposited data

Results flagged for a closer look

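Gusb and Lamp2 each had 1 of 4 KO astrocyte libraries far from the other 3 by Dixon's criterion. Gusb held 10.98 FPKM in KO astrocytes 3, against 3.83 to 4.68 FPKM in the other KO astrocyte libraries. Lamp2 held 185 FPKM in KO astrocytes 1, against 132 to 140.2 FPKM in the other KO astrocyte libraries. Both are 2 of 40 genes examined in this group, and chance flags about 1 in 20. WT astrocytes also reached such levels, at 11.3 FPKM for Gusb in WT astrocytes 1 and 184 FPKM for Lamp2 in WT astrocytes 2.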

How the results depend on the processing

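No gene of the set was called between KO and WT in either cell type, in the interaction or for age under any alternative run, with the exception of Hexa with Xist as a covariate. The cell type calls moved more. In WT the count called lower was 3 under median-of-ratios size factors, 1 with the day 12 libraries of the contrast alone and 3 to 6 with single libraries left out, against 5. Among the genes chosen by the naming rule there were 4 reversals, 3 under quantile normalisation (WT Ctsl -0.058, WT Psap -0.053 and KO Psap -0.16) and 1 with a library left out (KO Psap, -0.059 without KO microglia 1, in a range up to 0.116 without KO microglia 2). Other uncalled differences changed sign too, those of KO Scarb2 and KO Fuca1 under 2 and 3 alternatives, and, between genotypes, up to 9 genes in microglia and 12 in astrocytes under 1 alternative. Same-numbered libraries did not deviate together (correlations of -0.079 to 0.028), so no pairing by replicate number was seen. Any other pairing of libraries was not tested. With a replicate block, 0 genes were called higher and 0 lower between WT cell types, with 0 and 0 of the set, in a fit with few residual degrees of freedom. Between KO cell types the block gave 2892 genes higher and 2277 lower, with 21 of the set higher, against 28, and 1 lower, against 3. The block called 2 genes higher and 1 lower between KO and WT microglia, and 0 and 0 between KO and WT astrocytes.

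Over all genes, KO minus WT microglia called 9 higher and 4 lower, against 18 and 7 with a pseudocount of 0.1, 5 and 2 without the filter, 44 and 214 with Xist as a covariate (1 of the set higher), and 12 to 40 and 4 to 11 with a library left out. KO minus WT astrocytes called 1 and 2, against 3 higher with a pseudocount of 0.1, 2 higher with no age covariate, 0 and 0 without the filter, 0 and 0 with day 12 alone, and 0 to 4 and 0 to 7 with a library left out. The interaction called 14 and 9, against 25 higher without the filter and 9 to 59 and 4 to 25 with a library left out. Age called 7 and 6, against 1 lower with a pseudocount of 0.1, 26 lower without the filter, 4 higher under quantile normalisation, and 1 to 8 and 5 to 78 with a library left out. The cause of these shifts was not tested. Few libraries per group, an unknown read depth and shallower astrocyte libraries limit what the low genes can show.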
